A study of Mus musculus with 2 samples.

Results

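The cells described are Ighd-negative B lineage cells of mouse bone marrow that had been cultured beside human mesenchymal stromal cells (MSC). They were chosen by their own counts of 3 genes in the coculture library, among barcodes that showed 500 genes or more and had no more than 10% of their UMIs (unique molecular identifiers, 1 per captured transcript) from mitochondrial genes. A cell was a member if Cd79a and Cd79b, the 2 signalling chains of the B cell receptor, together had at least 3 UMIs while Ighd, the heavy chain of IgD, had 0. The rule found 260 members, 8.65% of the 3005 coculture cells kept (exact interval 7.67 to 9.71%) and part of 4822 cells kept over both libraries. They were set against 697 Ighd-positive B cells of the same library, which met the same Cd79 minimum and held at least 1 Ighd UMI, and against the other 2048 coculture cells.

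By its title the study set out to define myeloid-derived suppressor cells induced by MSC, a stromal cell of mesenchymal tissues known for damping immune responses. Femur marrow of C57BL/6NCrljOri mice (H-2b) received 40 ng/mL GM-CSF for 5 days in both groups. In the coculture, human MSC sat in inserts with 0.4 µm pores at 1 MSC to 5 marrow cells, were incubated for 24 h beforehand, and the medium named is DMEM; the culture without MSC is described with RPMI1640. Live cells with intermediate CD11b and Ly6C were sorted from the coculture and cells high in both from the culture without MSC, and 1 droplet 3′ library was made of each. The coculture library held 29217182 UMIs and the library without coculture 28294186.

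B cells are made in the marrow in steps. A pro-B cell rearranges the heavy chain, a pre-B cell tests it with the surrogate light chains Vpreb1, Vpreb2 and Igll1 and then rearranges a kappa or lambda light chain, and the immature B cell that results carries IgM alone. IgD appears with maturation, when long transcripts that run through both constant regions are spliced to the delta exons, together with CD23 (Fcer2a) and more MHC class II. IgD is lost again in germinal centre, switched and plasma cells, so a B lineage cell without Ighd can stand before or after the mature stage.

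The members were not 1 kind of cell. A group of 38, here called the progenitor-gene cluster, was led by Elane, Prtn3, Ms4a3 and Cebpe, genes of neutrophil precursors, by Prg2 and Prg3, which encode eosinophil granule proteins, and by S100a8 and Ctla2a. These cells had a median of 22894.5 UMIs, against 2904 in the other 222 members and 2900 in Ighd-positive B cells. They held 49.4% of all UMIs of the members, so sums over all members describe them as much as the B cells. The same 38 cells stood apart from the other 222 at each of 2 other clustering resolutions (as 2 clusters at resolution 1.0), with 2 other seeds and without cell cycle genes, while the borders among the other 222 moved.

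The progenitor-gene cluster met the rule mostly through Cd79b. Its median Cd79a plus Cd79b count was 4 UMIs, against 15 in the other members and 17 in Ighd-positive B cells. All 24 members with 0 Cd79a UMIs were in it, and 18 of the 22 members with exactly 3 Cd79 UMIs. Just outside the threshold were 78 cells with 2 Cd79 UMIs and no Ighd, of which 5 had Cd79a, with a median of 21683.5 UMIs. Low Cd79b was common in such cells: a Cd79b UMI was found in 31.6% of 713 other coculture cells with at least 10 UMIs of progenitor markers (Elane, Prtn3, Mpo, Ctsg, Cebpe), and a Cd79a UMI in 1.12%.

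The marker genes drew the same line. Of the 5 genes that mark the label, Cd79a was used to choose the cells; the other 4 (Ebf1, Ly6d, Mzb1, Shisa8) had a median of 14.5 UMIs per cell in the 220 members with under 10 UMIs of other lineages (chosen as given below) and 0 in the progenitor-gene cluster, against 12 in Ighd-positive B cells. Of 8 B cell markers, which include Ms4a1, Pax5 and Blk, all 8 were detected in the cluster but at 71.7 CPM in sum (CPM, UMIs summed over the cells and scaled to a total of 1000000). The sum was 2401 CPM in the 220 members with under 10 UMIs of other lineages and 2817 CPM in the 673 Ighd-positive B cells under the same limit. The cluster itself was mixed: 27 of its 38 cells had at least 10 UMIs of progenitor markers, 22 of basophil or mast cell markers, 17 of eosinophil markers, 12 of neutrophil markers and 6 of megakaryocyte markers. The rule did not use these markers, but the markers of other lineages chose the 220 members. The 38 were clustered by expression and picked by their progenitor markers. Their split by markers of other lineages was thus built in and is a description. The label genes other than Cd79a and the B cell markers, which the filter did not use, fit the name B lineage in the 220 members and go against it in the 38. No doublet caller was run, and whether droplets with more than 1 cell are among them was not tested.

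**Figure D1:**
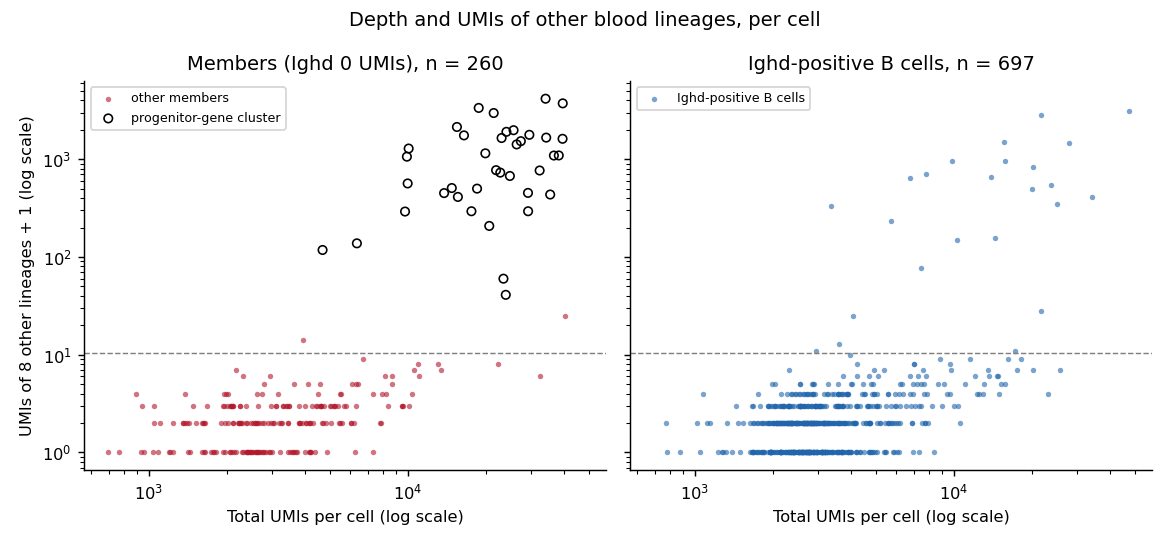
Total UMIs per cell (x axis, log scale) against UMIs of the markers of 8 other blood lineages plus 1 (y axis, log scale), for 260 members on the left and 697 Ighd-positive B cells on the right; each point is a cell, open circles are the progenitor-gene cluster and the dashed line marks 10 UMIs. All 38 cells of the cluster lie above the line, with a median of 918 such UMIs.

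To compare B cells with B cells, cells with 10 or more UMIs over the markers of 8 other lineages (eosinophil, basophil or mast cell, neutrophil, macrophage without Apoe, T or NK, erythroid, megakaryocyte, myeloid progenitor) were left out of both groups. This left 220 members and 673 Ighd-positive B cells, with a median of 2866.5 and 2866 UMIs per cell. Depth was spread more widely in the members, from 1446 UMIs at the 10th percentile to 6785 at the 90th, against 1979 and 6066 in the Ighd-positive B cells. Near the limit, 1 member and 5 Ighd-positive B cells had 8 or 9 such UMIs, and 0 members and 2 Ighd-positive B cells had 10 or 11. Of the markers that the filter used, Siglecf, Ccr3, Ltf, Ly6g, Mpo, Cebpe and Cd3e had 0 UMIs in these 220 members. Others of the same lists were found: eosinophil markers had 137 UMIs in 96 members, neutrophil markers 52 in 44, and T or NK markers 22 in 20. Transcripts of the sorted proteins were rare in the 220 members: Itgam, which encodes CD11b, was found in 1.36% of the members and 0.594% of the Ighd-positive B cells, and Ly6c1 and Ly6c2 in 0 of the 220 members, which allows a share of cells with a UMI of up to 1.36% (3 cells of 220) and does not limit the share that expresses them.

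Over all cells, 265 of 3232 genes at 50 CPM or more were at least 2-fold higher in the 260 members than in Ighd-positive B cells (8.2%) and 134 at least 2-fold lower (4.15%). In the filtered cells it was 26 of 2956 genes (0.88%) higher and 23 (0.778%) lower, 49 (1.66%) in either direction, and 10 of the higher and 18 of the lower genes were shared with the first comparison. Over all members the highest ratios belonged to Elane (neutrophil elastase), Igha, Jchain, Prtn3, Ms4a3, Cebpe, Myl10, Mpo, Ctsg, Ngp, Prg3, Thy1, Prss57, Igfbp4 and Rgcc. Elane averaged 1423 CPM over all members, held by 22 of them, against 5.94 CPM in Ighd-positive B cells. Among the lowest were Mmp12, Fcer2a, Stfa2l1, Fam101b, Ffar1, Lrrk2, Ciita, Gpr183, Pltp, Zfp318, Dock10, Cd22, H2-DMb2 and Mef2c. All values from here on are of the filtered cells unless stated, and with 1 library there is no replicate and no test: the 95% intervals cover counting error only and understate the error where most UMIs of a gene sit in few cells.

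**Figure D2:**
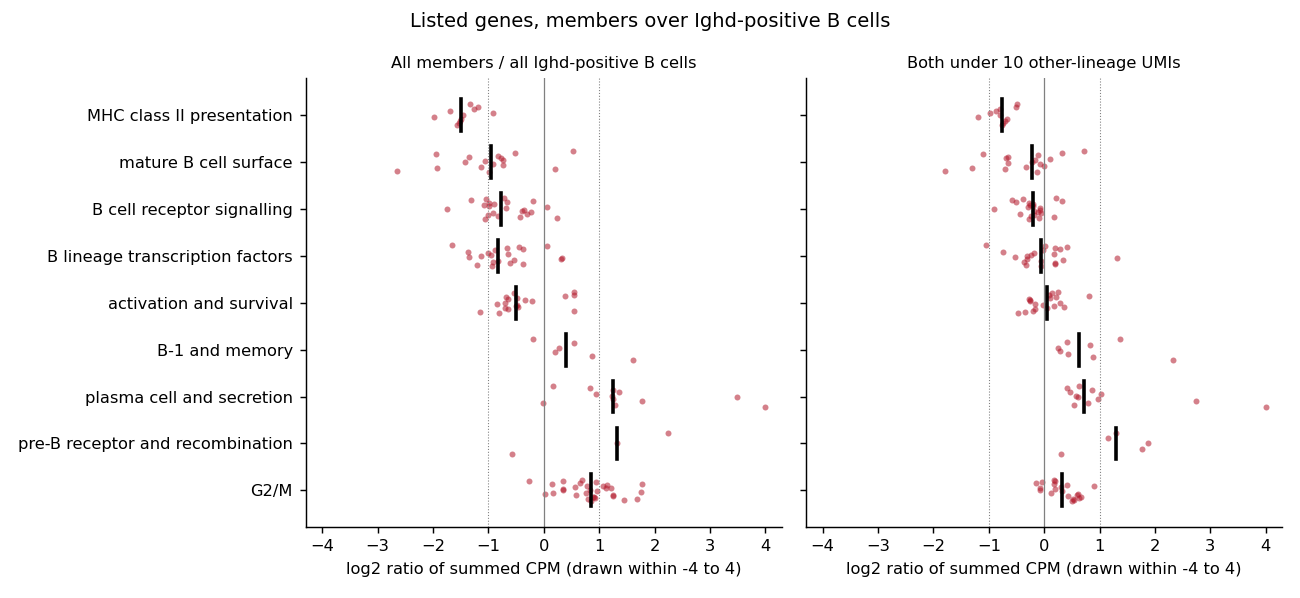
Log2 ratio of summed CPM, members over Ighd-positive B cells, for the genes of 9 lists at 50 CPM or more (points, drawn within -4 to 4) and each list's median (bar), over all cells on the left and over cells with under 10 UMIs of other lineages on the right; dotted lines mark 2-fold. The median of the MHC class II list is -1.49 on the left and -0.76 on the right, and that of the mature B cell surface list -0.96 and -0.22.

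The heavy chain of most members was IgM. An Ighm UMI was found in 98.2% of the members (216 of 220, exact interval 95.4 to 99.5%) and in 100% of the 673 Ighd-positive B cells, against 14.7% in 266 Epx-high coculture cells without Cd79, a level that free RNA in the droplets could give at a median of 15456.5 UMIs. Thinned to 2000 UMIs per cell, which left out 45 members, 73 Ighd-positive B cells and 5 Epx-high cells, the shares were 98.9% and 99.3%, against 3.83% in the Epx-high cells. Ighm and Ighd lie side by side (mm10 chr12:113418558-113422730 and chr12:113406604-113416324, minus strand), and both messages share their variable region, so a 3′ count reads which constant region a transcript ends in. Switched heavy chains were scarce: Ighg1 was in 7 members and 23 Ighd-positive B cells, Ighg2b in 2 and 3, Ighg3 in 6 and 5, and Ighg2c and Ighe in 0 of both. Igha was in 13 members and 30 Ighd-positive B cells, where the highest count was 4 UMIs.

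Ighd counts formed no gap between the groups. Ighd-positive B cells held a median of 3 Ighd UMIs, and whether members had Ighd transcripts that were not captured was not tested. Among all 957 cells that met the Cd79 minimum, 260 had 0 Ighd UMIs, 195 had 1, 139 had 2, 118 had 3 and 94 had 4. Several genes of mature B cells were lowest at 0, with a median depth of 2740 to 3038 UMIs per cell in all 5 steps. Fcer2a, the low-affinity IgE receptor, was at 49.8 CPM (35.9 to 67.3) in the members and at 135, 172, 197 and 189 CPM in cells with 1, 2, 3 and 4 or more Ighd UMIs. Mef2c, a transcription factor used in B cell receptor responses, was at 425 CPM in members and at 659, 873, 943 and 1005 CPM. For both genes the interval of the members lies below that of each of the other 4 steps.

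**Figure D3:**
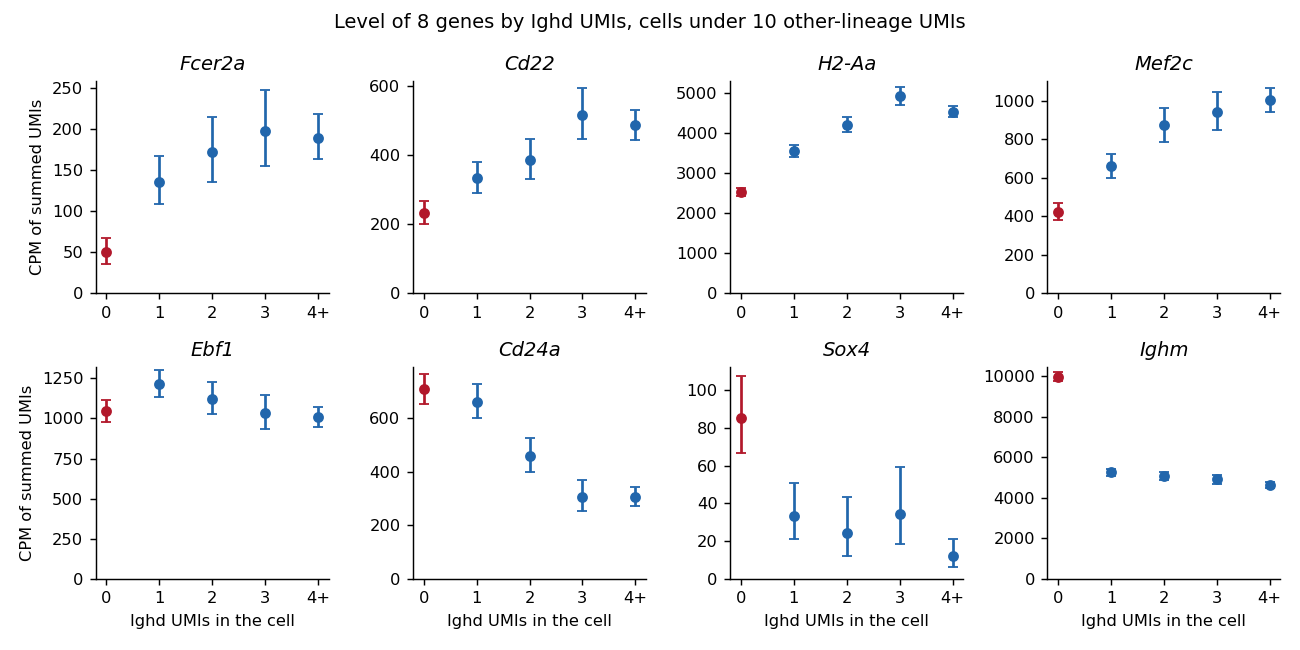
CPM of summed UMIs (y axis) of 8 genes by the number of Ighd UMIs in the cell (x axis, 0 are the members in red, 1 to 4 or more the Ighd-positive B cells in blue), with exact Poisson 95% intervals, in cells with under 10 UMIs of other lineages. Fcer2a, Cd22, H2-Aa and Mef2c are lowest at 0, Cd24a and Sox4 highest, and Ebf1 stays between 1006 and 1217 CPM.

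Genes known from younger B cells ran the other way. Sox4, a transcription factor needed for pro-B cells, was at 85.4 CPM (66.8 to 108) in 38 members and at 33.4, 24.2, 34.6 and 12.1 CPM in cells with 1, 2, 3 and 4 or more Ighd UMIs. Il7r, the interleukin 7 receptor that early B cells depend on, was at 51.0 CPM in members, held by 28 cells, and at 16.7, 13.2, 26.6 and 10.1 CPM in the steps above. Cd24a, the heat-stable antigen that is high on immature B cells, was at 707 CPM in members and at 661, 457, 306 and 305 CPM. Cd93, the marker of immature and transitional B cells, was low throughout, with 33.2 CPM in members and 34.9, 11, 18.6 and 10.1 CPM. For Sox4 the interval of the members lies above that of each of the other 4 steps. The members' interval overlaps that of the step with 3 Ighd UMIs for Il7r and with 1 for Cd24a. For Cd93 it overlaps those of the steps with 1, 2 and 3.

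Transcripts that define the pre-B stage were rare. Of the 19 genes of the pre-B receptor and recombination list, which was chosen with earlier results of these data known, 5 reached 50 CPM. Of these, 4 were at least 2-fold higher in members: Il7r, Sox4, Akap12, a scaffold of protein kinase A, and Tifa, an adaptor of TRAF signalling. Over all 2956 genes 0.88% were. The surrogate light chain and recombinase genes were not among the 4. The fifth, Vpreb3, a partner of immature immunoglobulin chains, was at 427 CPM in members and 346 CPM in Ighd-positive B cells. Vpreb2 and Igll1 had 0 UMIs in both groups, Vpreb1 was in 1 member and Dntt, the enzyme that adds untemplated bases, in 1 member and 1 Ighd-positive B cell. The recombinase genes Rag1 and Rag2 were in 4 and 2 members and in 2 and 0 Ighd-positive B cells.

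Summed over the members, genes of antigen presentation were lower than in Ighd-positive B cells. All 11 genes of the MHC class II list had log2 ratios below 0, with a median of -0.76. Of all 2956 genes 1641 were below 0, and the median was -0.04. Ciita, the coactivator that switches the class II genes on, was the 1 past 2-fold, at 92.5 CPM in members and 211 CPM in Ighd-positive B cells (log2 ratio -1.19, -1.55 to -0.84). Among all 2956 genes 0.778% were that much lower. H2-Aa, a chain of the presenting molecule I-A, was at 2529 CPM in members and 4280 CPM in Ighd-positive B cells, and H2-Eb1 of I-E at 1991 and 3239 CPM. Cd74, the invariant chain that escorts them, was at 9249 and 14671 CPM. H2-DMa and H2-DMb2, which load peptides, were at 310 and 302 CPM in members, against 539 and 555 CPM in Ighd-positive B cells. H2-Oa, which restrains that loading, was at 176 CPM in members and 305 CPM in Ighd-positive B cells, and Ctss, the protease that trims the invariant chain, at 254 and 356 CPM.

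The members were not uniform in these genes. Outside the progenitor-gene cluster, clustering gave groups of 79, 74 and 69 members whose borders moved with the settings and which were formed from the same genes, so their values are a description. These groups were not filtered: 2 of the 69 had 10 or more UMIs of other lineages, 1 of them with 40455 UMIs in total. Cd74 was at 14289 CPM and Fcer2a at 104 CPM in the 74, against 14671 and 173 CPM in the filtered Ighd-positive B cells. In the 69, Cd74 was at 4402 CPM and Fcer2a at 11.7 CPM, with Sox4 at 140 CPM and Top2a, a gene of dividing cells, at 486 CPM. Rag1 was at 23.4 CPM there, below the 50 CPM minimum. In the 79, Cd74 was at 10193 CPM, Fcer2a at 47.8 CPM, Sox4 at 44.8 CPM and Top2a at 8.96 CPM, and 6 of the 9 members with at least 5 Jchain UMIs were among them.

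Class II promoters carry an X box, bound by RFX, and a Y box, bound by NF-Y, on which CIITA sits. The RefSeq promoter table (GRCm38.p6) held a window, 250 bases before to 50 after the transcript start, for 8 of the 11 genes, and 6 of them held the 7 letters TGATTGG, taken as the core of the Y box and searched on both strands. These letters occur in 7.82% of all 32851 windows. The 80 bases around the core are shown on the gene's strand because these genes were lower together, with the core in capitals; a match of letters is not a bound site.
H2-Aa, minus strand, chr17:34287849-34287928: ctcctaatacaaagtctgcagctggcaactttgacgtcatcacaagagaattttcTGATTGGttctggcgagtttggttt
H2-Eb1, plus strand, chr17:34305751-34305830: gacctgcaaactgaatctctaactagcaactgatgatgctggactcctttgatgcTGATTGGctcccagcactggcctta
H2-DMb1, plus strand, chr17:34153073-34153152: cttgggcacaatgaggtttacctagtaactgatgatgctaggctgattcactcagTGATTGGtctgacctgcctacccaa
H2-DMb2, plus strand, chr17:34145102-34145181: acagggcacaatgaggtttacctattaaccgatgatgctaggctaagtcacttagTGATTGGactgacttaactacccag
H2-Oa, plus strand, chr17:34092279-34092358: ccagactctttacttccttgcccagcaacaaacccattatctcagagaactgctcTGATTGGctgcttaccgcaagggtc
H2-Ob, plus strand, chr17:34238791-34238870: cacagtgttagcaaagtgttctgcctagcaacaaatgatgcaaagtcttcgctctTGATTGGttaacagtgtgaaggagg
The core starts between 45 and 92 bases before the transcript start in these 6 genes.

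Surface genes of mature B cells split. Of 17 measured, 3 were at least 2-fold lower in members and 0 higher, with a list median of -0.22. Over all 2956 genes 0.778% were that much lower and 0.88% that much higher. Fcer2a had the lowest log2 ratio, -1.79 (-2.29 to -1.33), and was found in 11.8% of members and 34.2% of Ighd-positive B cells, or 8.0% and 26.5% when thinned to 2000 UMIs. Gpr183, the oxysterol receptor that places B cells in follicles, was at -1.10. Btla, an inhibitory receptor, was at 68.8 CPM in members and 109 CPM in Ighd-positive B cells. By contrast Ms4a1, which encodes CD20, was at 559 and 613 CPM, Tnfrsf13c, the BAFF receptor, at 337 and 357 CPM and Cxcr5, a follicle homing receptor, at 66.4 and 67.0 CPM. For these 3 genes the interval of the ratio includes 0.

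Factors of B lineage identity differed less. Ebf1, the factor that commits cells to the B lineage, was at 1044 CPM in members and 1088 CPM in Ighd-positive B cells, and Pax5, which maintains it, at 262 and 329 CPM. Of 21 measured factors of the lineage, Irf4, a factor of activated and plasma cells, was the 1 at least 2-fold higher (107 and 43.2 CPM) and Mef2c the 1 at least 2-fold lower. Among all 2956 genes 0.88% were that much higher and 0.778% that much lower. Irf8 was at 510 CPM in members and 739 CPM in Ighd-positive B cells. None of the 22 measured genes of B cell receptor signalling passed 2-fold, and the median was -0.20. Cd22, an inhibitory co-receptor, was lowest at 231 and 431 CPM, and the adaptor Bank1 was at 272 and 405 CPM, while the kinases Syk (236 and 209 CPM) and Blk (173 and 197 CPM) had intervals that include 0.

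Plasma cell genes were held by few members. Jchain, which joins IgA and IgM into polymers, was found in 9 members and all 9 had at least 5 UMIs, while 2 of all 697 Ighd-positive B cells had any. These 9 cells had a median of 5565 UMIs, and 6.53 to 76.8% of them were immunoglobulin and Jchain transcripts, with a median of 27.3%. In the other 211 members the share was at most 8.01%, with a median of 2.04%, and in the Ighd-positive B cells at most 5.13%, with a median of 1.88%. Jchain counts over the 9 cells were 997, 157, 116, 88, 14, 10, 8, 7 and 5 UMIs.

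The first of them was an IgA cell. It held 3564 Igha, 20401 Igkc and 0 Ighm UMIs among 32526, with 51 UMIs of Derl3, which clears misfolded proteins from the endoplasmic reticulum, and 0 of Ms4a1, Pax5 and Ly6d. This 1 cell carried 99% of the Igha, 71.1% of the Jchain and 53.9% of the Igkc UMIs of all 260 members. The other 8 cells were Ighm cells with 68 to 1423 Ighm UMIs, and 1 of them, with 856 lambda UMIs, held 157 Jchain UMIs. Other plasma cell markers were low in these 8 cells, with 1 to 4 Xbp1, 0 to 2 Sdc1 and 0 to 10 Derl3 UMIs. The IgA cell held 10 Xbp1 UMIs and 1 Sdc1 UMI. Prdm1, the factor that drives plasma cell formation, was in 12 of the 220 members and 3 of the Ighd-positive B cells, at 24.9 and 1.21 CPM.

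**Figure D4:**
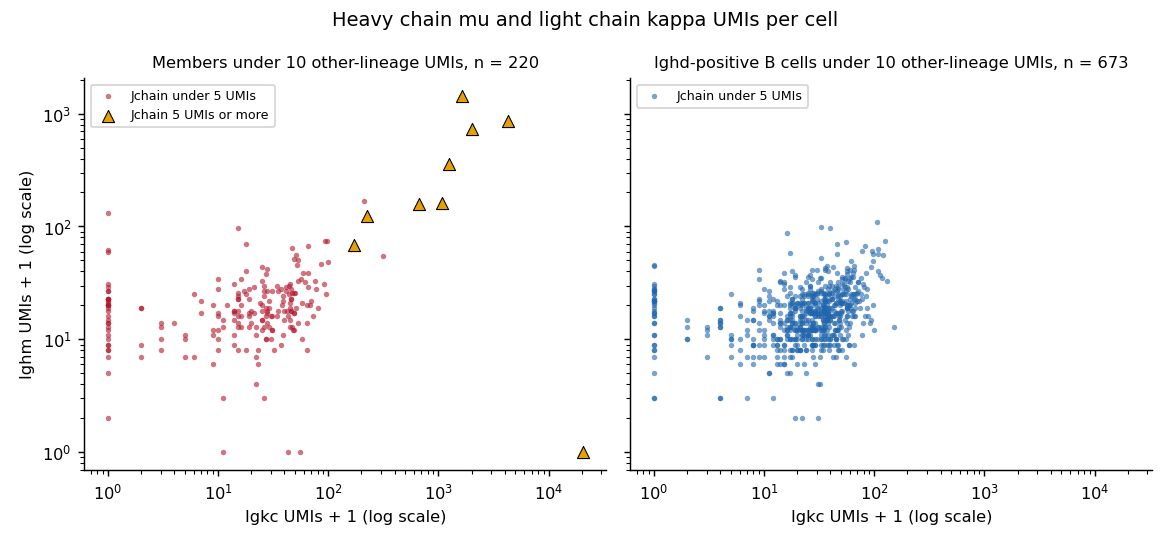
Ighm UMIs plus 1 (y axis, log scale) against Igkc UMIs plus 1 (x axis, log scale) per cell, for 220 members on the left and 673 Ighd-positive B cells on the right; triangles are the 9 members with at least 5 Jchain UMIs. The IgA cell lies at the lower right with 20401 Igkc and 0 Ighm UMIs, and the other 8 have 68 to 1423 Ighm UMIs.

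These 9 cells decided the immunoglobulin level of the members. With them Ighm was at 9983 CPM in members and 4925 CPM in Ighd-positive B cells, and Igkc at 44643 and 8409 CPM. Without them Ighm was at 5985 CPM in the 211 members and Igkc at 7805 CPM, log2 ratios of 0.28 and -0.11. Of the plasma cell and secretion list, 3 of the 12 measured were past 2-fold upward with them (Jchain, Derl3 and Creld2) and 0 of 7 without them. The count of higher genes was 26 of 3021 (0.861%) without them, 15 of them shared, and all 16 lower genes (0.53%) were among the 23. Of the genes named here, Lag3 (27.6 CPM in members and 12.9 CPM in Ighd-positive B cells) and Epcam (46.0 and 16.5 CPM) were then under the 50 CPM minimum, with log2 ratios of 1.10 and 1.48. Derl3, Creld2 and Zcwpw1 were under it too, at log2 ratios of 0.78, -0.57 and 0.79. Mef2c (457 CPM in members and 880 CPM in Ighd-positive B cells), Samsn1 and Gpr183 were then less than 2-fold lower. Among the genes that then passed 2-fold upward were Ezh2, a histone methyltransferase of dividing B cells (200 CPM in members and 97.2 CPM in Ighd-positive B cells), Fen1, a nuclease of DNA replication (52.6 and 25 CPM), and Cdca3, a gene of mitotic entry (64.5 and 31.1 CPM), all named after their values were seen. The MHC class II median was then -0.66, and Sox4 was at 94.7 CPM in members and 23.4 CPM in Ighd-positive B cells.

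Other genes at least 2-fold higher stood in few cells. Xcl1, a chemokine of activated lymphocytes, came from 1 member (79 UMIs), and 92.2% of the 128 Ccl4 UMIs from 1 of 4. Ccl22, a chemokine of activated B and dendritic cells, had 165 UMIs in 10 members, with 56.4% in 1, against 90 UMIs in 12 Ighd-positive B cells. More members held Atp1b1, a sodium pump subunit (50 members, 111 CPM, against 21.4 CPM in Ighd-positive B cells), Zbtb32, a repressor found in memory B cells (26 members, 54.6 and 10.9 CPM), and Fcrl5, an Fc receptor-like protein of marginal zone and B-1 cells (36 members, 53.4 and 20.6 CPM). Epcam was at 68.8 CPM in members and 16.5 CPM in Ighd-positive B cells, Lag3 at 58.1 and 12.9 CPM, Zcwpw1 at 52.2 and 13.7 CPM, and Spp1, in 8 members, at 68.8 and 18.6 CPM. All 8 measured genes of the B-1 and memory list had ratios above 0, 2 of them past 2-fold, with a median of 0.62, while 1315 of all 2956 genes were above 0 and 0.88% past 2-fold upward. Named genes at the low end were, besides those above, Fam101b, Fam69a, Rnf145, Lrrk2, Bmyc, Ffar1, St7, Pltp, Ifitm1, Zfp318, a factor required for IgD splicing, and Samsn1. Zfp318 was at 51.0 CPM in members and 115 CPM in Ighd-positive B cells (log2 ratio -1.17, -1.67 to -0.70).

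Apoe, a macrophage marker that B cells of this library also held, was at 1964 CPM in members and 701 CPM in Ighd-positive B cells, yet in 48.2% and 49.0% of the cells. Without the 9 Jchain cells it was at 1210 CPM in members. The 9 macrophage markers, Apoe included, summed to 2022 CPM in members and 752 CPM in Ighd-positive B cells, with Mrc1 at 0 UMIs in both and C1qa and C1qc at 0 in the Ighd-positive B cells; their part in the Apoe values was not tested.

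Few genes of the remaining lists were past 2-fold. Activation and survival genes had 0 of 19 past 2-fold and a median of 0.04, with Ccnd2, a cyclin of growing B cells, at 312 CPM in members and 177 CPM in Ighd-positive B cells. Homing and adhesion (7 measured, median 0.05), cytokine receptors (6, -0.32), the Toll-like receptor pathway (3, -0.26), interferon-stimulated genes (2, 0.17) and germinal centre and switching (1, 0.36) had none past 2-fold. Of the regulatory B cell list 2 were measured, and Lag3 was the 1 past 2-fold; without the 9 Jchain cells it fell under the 50 CPM minimum. Il10, of the same list but below 50 CPM, was in 10 members with 19 UMIs and in 1 Ighd-positive B cell with 1 UMI, and 5 of the 10 were among the 9 Jchain cells. The S phase list had 0 of 8 past 2-fold and a median of 0.30, and the G2/M list 0 of 21 and 0.31. Without the 9 Jchain cells 1 of 12 S phase genes (median 0.49) and 1 of 22 G2/M genes (median 0.44) were past 2-fold, while the median of all genes was 0.05. Top2a, a gene of dividing cells, was in 9.09% of members and 8.32% of Ighd-positive B cells.

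Lambda cells made up a larger share of the members than of the Ighd-positive B cells. Each B cell normally makes kappa or lambda, and in mice kappa prevails. Among cells with at least 10 light chain UMIs, lambda made up at least 90% of them in 32 of 204 members (15.7%, exact interval 11 to 21.4%) and in 41 of 657 Ighd-positive B cells (6.24%, 4.52 to 8.37%), and these intervals do not overlap. At the other end, lambda was under 10% in 13.7% of members and 8.83% of Ighd-positive B cells. Most cells were between 10 and 50% lambda, 58.8% of members and 72.9% of Ighd-positive B cells, with a median of 10 lambda UMIs in both. Whether these UMIs were the cell's own or free RNA was not tested, so the shares do not count cells that make both chains. The Iglc genes are close copies, so the level of each single one is uncertain. The lambda members held Ighm at 6998 CPM, against 5434 CPM in the lambda Ighd-positive B cells. They held Iglc1 at 9815 CPM, against 6937 CPM in the lambda Ighd-positive B cells, and had a median of 40 lambda UMIs, against 32.

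The 32 lambda members were set against the other 172 with enough light chain UMIs. Vpreb3 was found in 78.1% of lambda members (exact interval 60.0 to 90.7%) and 57.6% of the others (49.8 to 65.0%). Ly6d, a surface protein of B lineage cells from the progenitor stage on, was at 4653 CPM in lambda members and 2074 CPM in the others, and Tifa at 106 and 37.3 CPM. The intervals of the shares of cells overlap for each of these 3 genes. Among Ighd-positive B cells Ly6d was at 2172 CPM in the 41 lambda cells and 1879 CPM in the other 616.

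**Figure D5:**
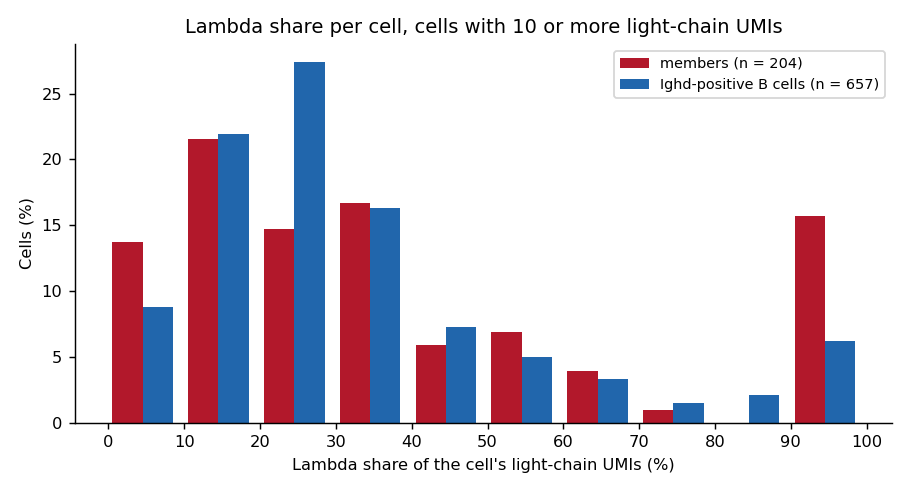
Share of cells (y axis, %) by the lambda share of each cell's light chain UMIs (x axis, steps of 10%), for 204 members (red) and 657 Ighd-positive B cells (blue) with at least 10 such UMIs. The last bar holds 15.7% of the members and 6.24% of the Ighd-positive B cells.

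Against the other 2048 coculture cells the members were led by B lineage genes even with the progenitor-gene cluster among them. The other cells were chosen for 2 or fewer Cd79 UMIs, so this lead was largely built in and is a description. Of 3235 genes, 170 (5.26%) were at least 2-fold higher over all 260 members and 255 (7.88%) lower. The 15 highest were Igkc, Igha, Ighm, Ly6d, Iglc2, Jchain, Iglc1, Mzb1, Iglc3, Ebf1, Ms4a1, Fcmr, the receptor for IgM, Vpreb3, Pou2f2 and Tnfrsf13c. Ly6d was at 1175 CPM in members and 1.43 CPM in the other cells, and Mzb1, a chaperone of IgM assembly, at 851 and 1.06 CPM. The 15 lowest were Ccl5, Mmp12, C1qb, Stfa1, C1qa, Tpsb2, C1qc, Fn1, Cxcl16, Mgl2, Zmynd15, Dpep2, Ltc4s, Plet1 and Stfa2l1, of which the C1q genes encode a complement component made by macrophages. C1qa had 2 UMIs in the members, 1.14 CPM, against 112 CPM in the other cells.

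The library without coculture held no such cells. The rule found 0 of its 1817 kept cells, so that a share of up to 0.165% is allowed by the floor of 3 cells and 0.203% by the exact interval, and 1 Ighd-positive B cell. The 2 libraries shared 4 cell barcodes, none of them a member. The sort gate, the coculture, the medium and the library differed together and cannot be told apart.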

How the data were processed

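The authors deposited raw UMI counts per gene and barcode for 2 droplet 3′ libraries, 1 per group (47729 genes, software version 3.1.0 per the file headers). Cell Ranger, bcl2fastq and the build mm10 are named in the submitters' processing notes. The sources used here do not give the annotation or the rule that called cells. Counts of kept cells were summed per cell group and scaled to CPM. A gene was measured at 50 CPM or more in either group and counted past 2-fold in CPM; a sum of 0 took a floor of 3 UMIs. Named genes are the 15 highest and 15 lowest ratios with 5 CPM added, and any gene of the 17 lists; Cd79a, Cd79b and Ighd, which the choice of cells used, were left out. Other thresholds, filters, weights and clusterings were tried as alternatives, and no doublet caller was run. Intervals are exact Poisson, conditional binomial or Clopper-Pearson and cover counting error only. Members were clustered in scanpy 1.11.5 (Leiden, resolution 0.5, 1000 variable genes, 15 components, 15 neighbours). Gene positions are from GENCODE M21. The calculation was tested on simulated data. The members and lists were chosen with earlier results of these data known. Some listed genes are not reported here.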

Additional observations from a re-analysis of the deposited data

How the results depend on the processing

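Each group is 1 library, and every statement is limited to its cells; genes near 50 CPM rest on about 42 UMIs in the filtered members. No paired analysis was possible because each group has 1 library. None of 269 recomputed values for 19 results reversed, 146 kept within the limits set and 123 moved. These do not cover the ratio of every gene. Without the 9 Jchain cells the log2 ratio of Igkc went from 2.41 to -0.11. The filter on 8 lineages, the Cd79a, Igkc and Jchain settings and the seeds were chosen after seeing the data; the cause of the moves was not tested beyond the cells each setting leaves out.
The settings below are, in order, a Cd79 minimum of 2, of 6, at least 5000 UMIs, the 6-lineage filter, equal cell weight, the 8-lineage filter, at least 1 Cd79a UMI, the 8-lineage filter without the top Igkc cell, and that filter with under 5 Jchain UMIs; a setting that kept a value is passed over. Genes higher than in Ighd-positive B cells, 265 in all, numbered 490, 31, 42, 83, 26, 84, 24 and 26 (no move at 5000 UMIs), and 509 and 144 at 20 and 100 CPM. Lower genes, 134 in all, numbered 403, 27, 261, 26, 21, 23, 35, 17 and 16, 64 without the 5% deepest cells, and 277 and 80 at 20 and 100 CPM. Against other coculture cells, higher genes (170) numbered 59, 380, 71, 450, 413, 580, 305, 636 and 678, and 332 and 87 at 20 and 100 CPM. Lower genes there (255) numbered 612 at a minimum of 6, 698 (6 lineages), 541 (equal weight), 768, 468, 744 and 724, and 479 and 152 at 20 and 100 CPM.
The MHC class II median (-1.49) was -2.40, -0.71, -2.09, -0.87, -0.82, -0.76, then -0.70 and -0.66 in the last 2 settings. The mature surface median (-0.96) was -1.95, -0.21, -1.58, -0.22, -0.24, -0.22, -0.38, -0.16 and -0.095. The receptor signalling median (-0.77) was -1.46 and -0.18 at minimums of 2 and 6, and -0.15 and -0.10 in the last 2 settings; the G2/M median (0.86) was 0.25 at a minimum of 6. Members made up 11.2, 7.22, 4.90, 15.2, 18, 17.9 and 17.4% of the cells that each setting left, against 8.65% of all kept cells, with no move at equal weight or with Cd79a. The lineage filters also left out cells that are not members, so their shares have a smaller total. Ighm was found in 72.5, 98.2, 68.7, 97.7, 98.2, 96.6, 98.6 and 98.6% of members, and in 83.7% after thinning, against 88.8%. Fcer2a was in 14.9% with the 6-lineage filter, against 10.4%. Clusters numbered 2 and 9 at resolutions 0.3 and 1.0, against 4.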
